A study of Mus musculus with 59 samples.

Results

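Binding sites of BCL6, PPARα and PPARδ were examined around 6 mouse genes that encode liver-secreted proteins: *Fgf21*, *Angptl4*, *Angptl6*, *Gdf15*, *Fst* and *Igfbp2*. A peak was taken for a gene if its center lay inside the gene, or if the nearest start of a protein-coding RefSeq transcript, within 100 kb, belonged to that gene. By this rule 105 of the 102931 peaks in 7 lists were near the 6 genes. Peaks whose centers lay within 200 bp of each other were joined into sites, which gave 32 sites of 40474 in all. The 7 lists came from chromatin immunoprecipitation of male livers with sequencing (ChIP-seq). In 6 of them BCL6, PPARα or PPARδ was precipitated from wild-type (WT) C57BL/6 mice that were fed ad libitum or fasted overnight. For the other list BCL6 was precipitated from ad libitum fed *Bcl6* fl/fl mice on C57BL/6, which carry loxP sites in *Bcl6* and no Cre, and served as controls of the liver knockout. Each list pooled 3 livers, 21 samples in all, and the age of the mice is not given in the sources used here. Input, knockout and H3K27ac samples of the series were not analysed here.

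FGF21 is a fasting hormone that signals through FGF receptors with the co-receptor β-klotho, and its gene is a textbook target of PPARα in liver. ANGPTL4 inhibits lipoprotein lipase in peripheral tissue, and ANGPTL6 is a related circulating protein linked to energy expenditure. GDF15 is a stress hormone of the TGF-β superfamily that acts on the hindbrain receptor GFRAL, follistatin (*Fst*) binds and neutralizes activins, and IGFBP2 binds insulin-like growth factors in blood. PPARα and PPARδ are nuclear receptors for fatty acids that bind, paired with RXR, to repeated half-sites with a single spacer base, an arrangement called DR1. BCL6 is a zinc finger repressor that recruits corepressors such as SMRT and NCoR to its own element.

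The lists held between 2399 peaks (PPARδ, fasted) and 29085 peaks (PPARα, fasted), each as a position with no tag count, score or p-value. Every peak of a list has the same width, between 192 and 222 bp. Replicates were pooled before deposit, so no value below has a spread between livers, the read depth is unknown, and no test between feeding states can be made. A site is scored only as called or not called, and a site missing from a list may have lain under its threshold. Peak positions were within the chromosome ends of GRCm38, the assembly of mm10. As a check of the tissue, all 6 hepatocyte markers looked at (*Alb*, *Apoa1*, *Ttr*, *Hnf4a*, *Cps1* and *Fabp1*) had a fed BCL6, *Bcl6* fl/fl BCL6, fed PPARα and fasted PPARα peak within 10 kb of a start. Fasted BCL6 peaks were there for 5 of 6, fed PPARδ peaks for 4 and fasted PPARδ peaks for 1. Of 5 markers of leukocytes, endothelium and fibroblasts (*Ptprc*, *Cd3e*, *Pecam1*, *Col1a1* and *Adgre1*), none had a peak of the BCL6 or PPARα lists within that distance, and *Col1a1* alone had a fasted PPARδ peak. By the 100 kb rule 4 of these 5 genes had a site, and *Ptprc* and *Pecam1* had 1 and 2 sites of BCL6 with PPARα.

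Reference sequences at 11 of the 32 sites, chosen because the results below turn on them, are given from RefSeq GRCm38, each 5′ to 3′ on the strand of its gene. They cover 200 bp around the site center, except that the exon was left off at *Fgf21* -59 and the stretch at *Angptl4* +2174 was extended to hold a ChIP-qPCR amplicon of the study. A name gives the distance in bp of the site center from the nearest start of the gene, with a minus sign upstream. Capitals mark a match to DR1 (2 copies of AGGTCA with 1 free base between them, at most 2 mismatches), a single exact AGGTCA half-site, the BCL6 element TTCCTAGAA with at most 1 mismatch, or an exact C/EBP-ATF element TGATGNAA, on either strand. Stretches with no capitals hold none of these.
First, the 4 sites of *Fgf21* in or nearest the gene show a promoter pair called in fasted livers and a downstream pair called for all 3 factors.
Fgf21 -979 (chr7:45616370-45616569, minus strand): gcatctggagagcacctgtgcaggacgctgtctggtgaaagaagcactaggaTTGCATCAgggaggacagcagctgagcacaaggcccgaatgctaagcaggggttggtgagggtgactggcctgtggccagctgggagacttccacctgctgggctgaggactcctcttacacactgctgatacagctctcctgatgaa
Fgf21 -59 (chr7:45615491-45615649, minus strand): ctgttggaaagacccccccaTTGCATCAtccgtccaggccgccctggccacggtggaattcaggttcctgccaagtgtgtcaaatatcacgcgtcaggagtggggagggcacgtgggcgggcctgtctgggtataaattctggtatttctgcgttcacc
Fgf21 +4466 (chr7:45610925-45611124, minus strand): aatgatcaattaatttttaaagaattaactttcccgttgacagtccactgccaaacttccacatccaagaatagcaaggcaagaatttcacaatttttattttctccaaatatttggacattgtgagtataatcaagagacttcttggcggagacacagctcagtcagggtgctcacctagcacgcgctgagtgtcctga
Fgf21 +5772 (chr7:45609619-45609818, minus strand): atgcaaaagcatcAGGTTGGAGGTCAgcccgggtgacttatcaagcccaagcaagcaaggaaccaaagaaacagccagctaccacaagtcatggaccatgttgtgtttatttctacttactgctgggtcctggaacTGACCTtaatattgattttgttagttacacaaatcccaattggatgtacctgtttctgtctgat
Next come the intronic site of *Angptl4*, its downstream site with a DR1 match, and the upstream sites of *Gdf15* and *Fst* that were called in the most lists.
Angptl4 +2174 (chr17:33779302-33779553, minus strand): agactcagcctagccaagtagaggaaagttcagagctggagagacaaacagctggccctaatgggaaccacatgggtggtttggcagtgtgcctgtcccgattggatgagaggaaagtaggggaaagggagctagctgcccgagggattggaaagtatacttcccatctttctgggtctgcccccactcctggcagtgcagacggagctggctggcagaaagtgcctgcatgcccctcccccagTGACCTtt
Angptl4 +7941 (chr17:33773535-33773734, minus strand): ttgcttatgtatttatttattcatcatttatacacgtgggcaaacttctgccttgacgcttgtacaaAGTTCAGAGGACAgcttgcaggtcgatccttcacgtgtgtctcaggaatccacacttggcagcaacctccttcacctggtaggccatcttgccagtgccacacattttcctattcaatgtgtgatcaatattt
Gdf15 -1881 (chr8:70634238-70634437, minus strand): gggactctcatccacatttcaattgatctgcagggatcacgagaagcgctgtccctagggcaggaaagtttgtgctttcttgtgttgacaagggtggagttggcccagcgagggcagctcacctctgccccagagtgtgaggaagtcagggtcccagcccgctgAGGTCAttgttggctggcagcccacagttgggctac
Fst -4059 (chr13:114462911-114463110, minus strand): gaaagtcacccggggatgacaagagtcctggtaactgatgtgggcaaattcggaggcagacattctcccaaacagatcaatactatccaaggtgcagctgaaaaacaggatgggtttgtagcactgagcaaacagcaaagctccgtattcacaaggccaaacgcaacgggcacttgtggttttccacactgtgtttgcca
The last 3 are sites of *Igfbp2*: the far upstream site with 5 of the 6 C57BL/6 lists, an intronic site of fasted PPARα, and the intronic site of fed BCL6 that holds the BCL6 element.
Igfbp2 -51093 (chr1:72773288-72773487, plus strand): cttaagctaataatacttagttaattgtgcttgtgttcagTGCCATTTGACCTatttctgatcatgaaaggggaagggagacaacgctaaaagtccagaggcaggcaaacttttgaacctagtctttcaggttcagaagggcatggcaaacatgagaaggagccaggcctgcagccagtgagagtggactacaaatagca
Igfbp2 +657 (chr1:72825945-72826144, plus strand): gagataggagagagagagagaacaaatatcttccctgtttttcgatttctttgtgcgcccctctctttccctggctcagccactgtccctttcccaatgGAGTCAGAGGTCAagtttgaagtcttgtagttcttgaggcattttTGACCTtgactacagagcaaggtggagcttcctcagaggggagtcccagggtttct
Igfbp2 +11886 (chr1:72837174-72837373, plus strand): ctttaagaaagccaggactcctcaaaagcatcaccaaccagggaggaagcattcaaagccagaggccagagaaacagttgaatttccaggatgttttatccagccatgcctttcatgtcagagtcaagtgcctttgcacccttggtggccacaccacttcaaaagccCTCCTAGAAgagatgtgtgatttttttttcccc

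The 6 genes differed widely in how many sites they had. *Igfbp2* had 10 sites, *Fst* 8, *Fgf21* and *Angptl4* 5 each, *Gdf15* 3 and *Angptl6* 1. BCL6 in C57BL/6 livers was called at 4 of the 6 genes (*Fgf21*, *Angptl4*, *Fst* and *Igfbp2*), and at the same 4 genes in the fed and in the fasted list. PPARα was called at all 6 genes in fasted livers and at 5 in fed livers, where *Angptl6* had no peak. PPARδ was called at *Fgf21*, *Angptl4*, *Gdf15* and *Igfbp2* in both states and at *Fst* in fed livers.

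These counts are read beside all 21000 protein-coding genes with a curated start, assigned by the same rule. Of those genes, 29% had a fed BCL6 peak, 21.5% a fasted BCL6 peak and 31.9% a BCL6 peak in *Bcl6* fl/fl livers. For PPARα the shares were 35.5% in fed and 47.6% in fasted livers, and for PPARδ 19.3% and 9.01%. The median gene had 1 site, and 45.8% had none. At least as many sites as *Igfbp2* were found at 3.55% of genes, and at least as many as *Fst* at 5.85%. For *Fgf21* and *Angptl4* that share was 13.1%, for *Gdf15* 23.9% and for *Angptl6* 54.2%. The genes also differ in how much sequence is open to the rule, from 10.1 kb for *Angptl6* and 21.6 kb for *Gdf15* to 84.6 kb for *Igfbp2* and 135 kb for *Fst*, so a count is no measure of density. For *Fgf21* and *Angptl4*, with 5 sites each, it was 23.2 kb and 25 kb. This length was measured for the 6 genes only, so their density cannot be set beside that of other genes.

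**Figure D1:**
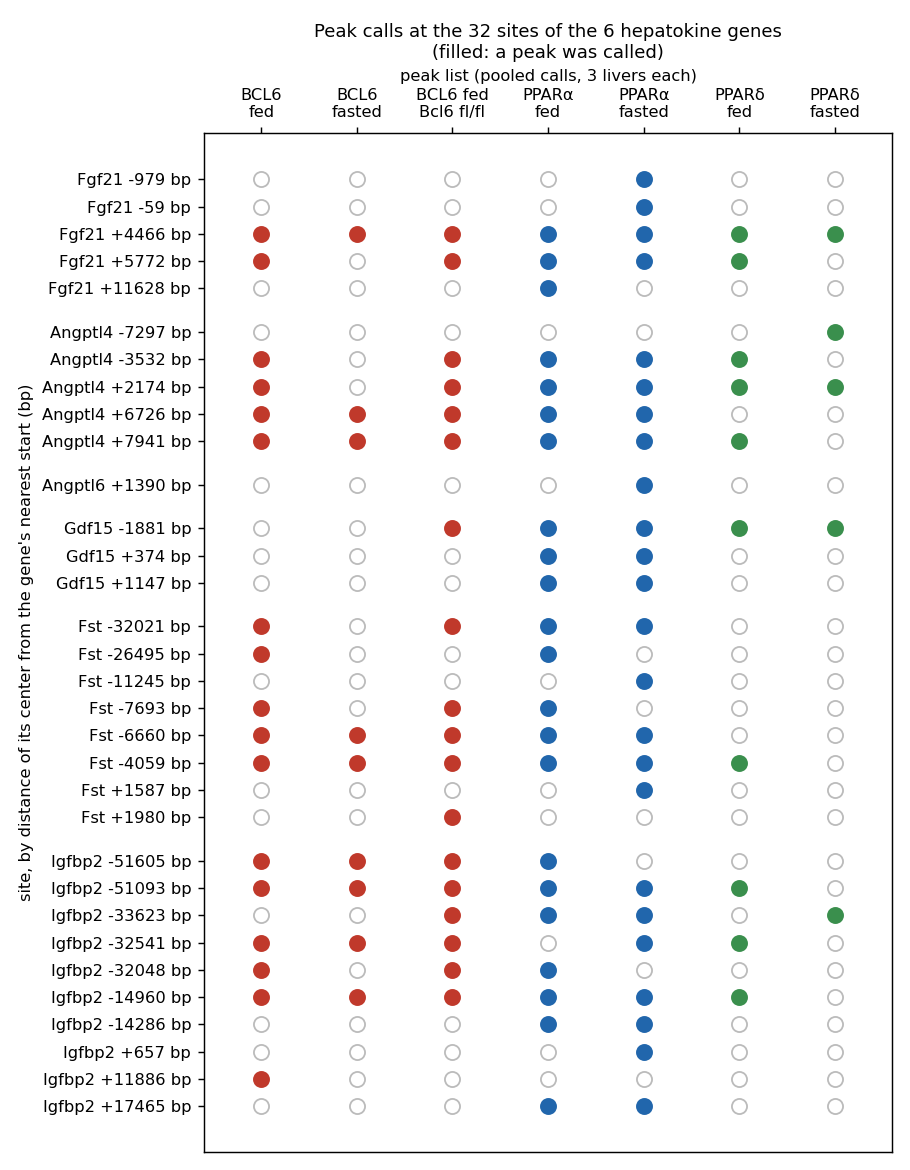
Peak calls at the 32 sites of the 6 genes (rows, named by the distance in bp of the site center from the gene's nearest start) in the 7 pooled lists (columns); a filled circle is a called peak. BCL6 was called in C57BL/6 livers at 17 sites, PPARα at 29 and PPARδ at 12, and *Fgf21* +4466 is the site with a peak in every list.

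*Fgf21* (chr7:45613890-45615490, minus strand) showed a promoter and a downstream cluster with different calls. Upstream of the start, at -979 (chr7:45616358-45616580) and at -59 (chr7:45615438-45615660), PPARα was called in fasted livers and in no other list. The second of these peaks spans the start itself. A promoter is taken here as 1000 bp upstream to 100 bp downstream of a start, and both sites fell in it; they were the only promoter sites among the 32. Over the genome, 60.1% of PPARα sites in promoters were called in fasted livers only, so this pair of calls is of a frequent kind.

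Beyond the 3′ end of *Fgf21* the calls were of all 3 factors. The site at +4466 (chr7:45610844-45611205), 2866 bp past the gene end, was called in all 7 lists. At +5772 (chr7:45609564-45609849) BCL6 was called in fed C57BL/6 and *Bcl6* fl/fl livers, PPARα in both states and PPARδ in fed livers. Fasted BCL6 and fasted PPARδ were thus the lists without a peak there. In fed livers the BCL6 center lay 48 bp from the PPARα center at +4466, and the PPARδ center lay 90 bp from the PPARα center on the far side. At +5772 those distances were 3 and 20 bp. The remaining site, +11628 (chr7:45603754-45603970), was called for PPARα in fed livers alone. The gene on that side is *Bcat2*, 24180 bp away, and *Fut1* lies 2116 bp from the start of *Fgf21*. No site of another list fell between *Fgf21* -979 and a distance of 89683 bp on the *Fut1* side.

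*Angptl4* (chr17:33774900-33781575, minus strand) had BCL6 and PPARα together at 4 of its 5 sites. The site at +2174 (chr17:33779271-33779554) lies in intron 3 and was called for fed BCL6, for PPARα in both states and for PPARδ in both states. Fasted BCL6 was the C57BL/6 list without a peak there. Primers of the study for ChIP-qPCR (cacccatgtggttcccatta and agactcagcctagccaagta) matched the genome exactly at chr17:33779476-33779553, a 78 bp product in the same intron whose center lay 113 bp from the site center. At -3532 (chr17:33784975-33785239) the calls were the same apart from fasted PPARδ, which was absent.

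Downstream of *Angptl4*, PPARα and BCL6 were called in both states at +6726 (chr17:33774721-33774988), centered 51 bp past the gene end, and at +7941 (chr17:33773520-33773756). Fed PPARδ was called at the second of these and no PPARδ at the first. So BCL6 was called in fed livers at 4 sites of *Angptl4* and in fasted livers at 2, both downstream of the gene. The site at -7297 (chr17:33788770-33788974) differed from the others: fasted PPARδ was its only list. Among all 38448 sites of the C57BL/6 lists, 2.97% had PPARδ without BCL6 or PPARα, in any feeding state. Fasted PPARδ was the only C57BL/6 list at 524 of all 40474 sites, 1.29%. The neighboring genes are *Rab11b*, 14414 bp past the 3′ end, and *Kank3*, 28948 bp upstream.

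*Angptl6* and *Gdf15* had no BCL6 peak in C57BL/6 livers. *Angptl6* (chr9:20873808-20879822, minus strand) had 1 site, at +1390 (chr9:20878209-20878431) in coding exon 2, called for PPARα in fasted livers only. The gene body of *Shfl* overlaps *Angptl6*, *Ppan* lies 8353 bp upstream and *Rdh8* 45750 bp downstream, so little sequence is nearest to *Angptl6*.

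*Gdf15* (chr8:70629393-70632470, minus strand) had PPARα in both states at each of its 3 sites. At +374 (chr8:70631599-70631840, intron 1) and +1147 (chr8:70630821-70631071, intron 2) PPARα was the only factor called. The upstream site at -1881 (chr8:70634214-70634469), which falls in the uncharacterized RefSeq locus *Gm34154*, also had PPARδ in both states. BCL6 was called there in *Bcl6* fl/fl livers but in neither C57BL/6 list. The fed and fasted PPARα centers at -1881 were 1 bp apart, and 31 bp and 22 bp apart at +1147 and +374. *Lrrc25* lies 8543 bp beyond the 3′ end and *Pgpep1* 13966 bp upstream.

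*Fst* (chr13:114452262-114458989, minus strand) had 6 of its 8 sites upstream. BCL6 and PPARα were called together at 5 of these 6. At -4059 (chr13:114462886-114463141) both were called in both states and PPARδ in fed livers, which was the only PPARδ call at the gene. At -6660 (chr13:114465481-114465748) BCL6 and PPARα were called in both states. Farther out, the fasted BCL6 list had no peak within 100 kb: -7693 (chr13:114466492-114466816) and -26495 (chr13:114485308-114485584) were called for both factors in fed livers only. At -32021 (chr13:114490816-114491128) BCL6 was called in fed livers and PPARα in both states.

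The other sites of *Fst* had 1 list each. Fasted PPARα was the single list at -11245 (chr13:114470085-114470307) and, in intron 1, at +1587 (chr13:114457253-114457475). A BCL6 peak of *Bcl6* fl/fl livers at +1980 (chr13:114456870-114457072), also in intron 1, had no partner in the C57BL/6 lists. The sites from -11245 to +1980 lie in the uncharacterized locus *Gm41074*, which overlaps *Fst*. *Ndufs4* lies 64168 bp beyond the 3′ end and *Mocs2* 359171 bp upstream. *Fst* was the only one of the 6 genes with sites nearest to it but past the 100 kb limit, at -121311 for fasted PPARα and at -128851 for fasted BCL6. The farthest site inside the limit was *Igfbp2* -51605.

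*Igfbp2* (chr1:72824480-72852474, plus strand) had 3 upstream groups of sites and 3 sites in intron 1. In the farthest group, -51093 (chr1:72773236-72773541) was called for BCL6 and PPARα in both states and for PPARδ in fed livers. Its neighbor 512 bp away, -51605 (chr1:72772731-72773005), was called for BCL6 in both states and for PPARα in fed livers. Both members of this pair were also called in *Bcl6* fl/fl livers, whereas PPARδ and fasted PPARα were called at -51093 alone.

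The middle group held 3 sites with unlike calls. The site at -33623 (chr1:72790711-72791021) had PPARα in both states, PPARδ in fasted livers and BCL6 in *Bcl6* fl/fl livers only. At -32541 (chr1:72791785-72792094) BCL6 was called in both states, PPARα in fasted and PPARδ in fed livers. This was the only site of BCL6 among the 32 where PPARα was called in fasted livers only, and the same set of calls was found at 42 sites in all. The last of the group, -32048 (chr1:72792286-72792564), was called for BCL6 and PPARα in fed livers only.

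Closer to *Igfbp2*, -14960 (chr1:72809348-72809650) had the calls of -51093: BCL6 and PPARα in both states and PPARδ in fed livers. At -14286 (chr1:72810076-72810314), 674 bp away, PPARα alone was called, in both states. The 7 upstream sites lie in the uncharacterized locus *Gm30847*, and the next coding gene on that side is *Rpl37a*, 110667 bp away. Inside the gene, fasted PPARα was called at +657 (chr1:72825933-72826155) and PPARα in both states at +17465 (chr1:72842742-72842964). Fed BCL6 alone was called at +11886 (chr1:72837165-72837381), the single site of the 32 with BCL6 and no PPAR in C57BL/6 livers. *Igfbp5*, another IGF-binding protein gene, lies 5591 bp past the 3′ end and had 2 sites of its own, neither with BCL6 in C57BL/6 livers and 1 with a BCL6 peak in *Bcl6* fl/fl livers.

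**Figure D2:**
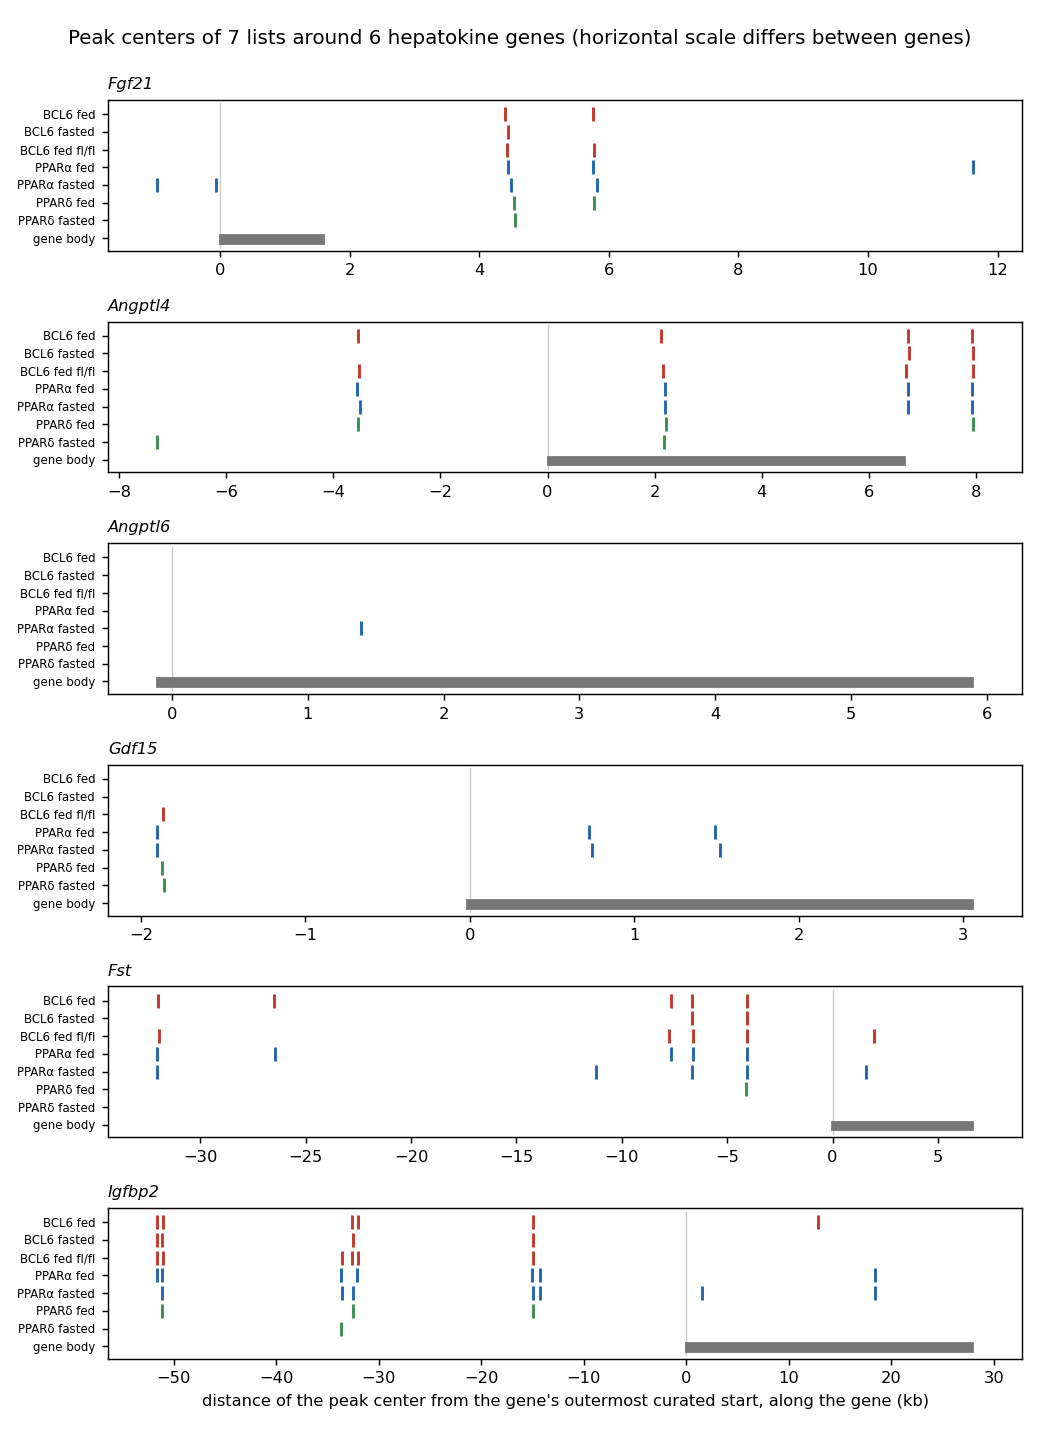
Centers of the peaks in the 7 lists around each gene, by distance in kb from the outermost curated start along the gene; the gray bar is the gene body and the horizontal scale differs between genes. The calls at *Fgf21* split into fasted PPARα at the promoter and all 3 factors at +4466 and +5772, and the 7 upstream sites of *Igfbp2* fall into 3 groups.

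Set side by side, 18 of the 32 sites were upstream of their gene, 5 downstream, 8 in introns and 1 in a coding exon. Promoters held 2 sites, or 6.25% (95% Wilson confidence interval 1.73% to 20.1%), beside 11.3% of all sites. Coding gene bodies held 9, or 28.1% (15.6% to 45.4%), beside 56.9%. The gene bodies were short, from 1601 bp (*Fgf21*) to 6728 bp (*Fst*), apart from *Igfbp2* with 27995 bp. The part of gene length in this share was not tested. The intervals here and below cover counting error only, and sites of 1 gene are not independent of each other.

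In the shares that follow, a factor counts at a site if it was called there in either feeding state. In the C57BL/6 lists BCL6 was called at 17 of 31 sites, 54.8% (37.8% to 70.8%), beside 45.7% of all sites. PPARα was called at 29, 93.5% (79.3% to 98.2%), beside 86.8%. PPARδ was called at 12, 38.7% (23.7% to 56.2%), beside 21.3%, so that its interval lay above the share of all sites. This is not shown to be particular to the 6 genes. By the 100 kb rule fed PPARδ peaks were found at 5 of them and at 5 of the 6 hepatocyte markers.

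BCL6 and PPARα were called together at 16 of the 31 sites in the C57BL/6 lists, 51.6% (34.8% to 68%), beside 35.5% of all sites. They were 5 at *Fst*, 5 at *Igfbp2*, 4 at *Angptl4* and 2 at *Fgf21*. Read as genes, 4 of 6 had such a site, beside 26% of coding genes. By the same 100 kb rule all 6 hepatocyte markers had one, and 34 of their 62 sites were of this kind. So these shares are not particular to the 6 genes. At least 5 such sites were found at 3.14% of coding genes, and at least 4 at 5.03%. Of the 17 BCL6 sites 16 also had PPARα, 94.1% (73% to 99%), where 77.6% of all BCL6 sites did. The exception was *Igfbp2* +11886. Of the 12 PPARδ sites 11 also had PPARα, 91.7% (64.6% to 98.5%), beside 85.1% of all, the exception being *Angptl4* -7297.

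All 3 factors were called at 9 sites, 29% of the 31 (16.1% to 46.6%), beside 12.1% of all sites. *Angptl4* (-3532, +2174 and +7941) and *Igfbp2* (-51093, -32541 and -14960) had 3 each, *Fgf21* (+4466 and +5772) 2 and *Fst* (-4059) 1. At *Igfbp2* -32541 PPARα was called in fasted livers only and PPARδ in fed livers only, so neither state had all 3 there. PPARα without BCL6 or PPARδ was called at 11 sites, 35.5% (21.1% to 53.1%), where 45.3% of all sites were of this kind. The interval for 3 factors lay above the share of all sites, and the intervals for both other shares held it. Sites of 3 factors were also frequent at the hepatocyte markers: by the 100 kb rule 5 of 6 had one, beside 4 of the 6 genes. None of these is a test, since the 6 genes were chosen with these calls known.

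The feeding state of the lists that called a site was compared for each factor. Of 17 BCL6 sites, 8 stood in the fed list alone (47.1%, 26.2% to 69%), 9 in both lists (52.9%, 31% to 73.8%) and 0 in the fasted list alone (upper bound 18.4%). Over all BCL6 sites the shares were 45.3% fed only, 43.7% both and 11% fasted only. Each member share has an interval that holds the share of all sites. The 8 fed-only sites were *Fgf21* +5772, *Angptl4* -3532 and +2174, *Fst* -32021, -26495 and -7693, and *Igfbp2* -32048 and +11886. Of the 4 genes, *Fgf21* and *Igfbp2* had 1 and 2 of them, *Angptl4* 2 and *Fst* 3.

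Of 29 PPARα sites, 17 stood in both lists (58.6%, 40.7% to 74.5%), 7 in the fasted list alone (24.1%, 12.2% to 42.1%) and 5 in the fed list alone (17.2%, 7.6% to 34.5%). The shares of all PPARα sites were 51.3%, 35.8% and 12.8%. The 7 fasted-only sites were spread over *Fgf21* (2), *Fst* (2), *Igfbp2* (2) and *Angptl6* (1). They were not alike in place, with 2 in a promoter, 1 in an exon, 2 in introns and 2 upstream. The 5 fed-only sites were *Fgf21* +11628, *Fst* -26495 and -7693, and *Igfbp2* -51605 and -32048.

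PPARα calls split by whether BCL6 was called at the same site. Without BCL6, 6 of 13 PPARα sites were fasted only, 46.2% (23.2% to 70.9%), 6 were in both states and 1 was fed only. With BCL6, 1 of 16 was fasted only, 6.25% (1.11% to 28.3%), 11 were in both states and 4 were fed only. The same split over the genome was 52.6% fasted only, 34% in both states and 13.4% fed only without BCL6. With BCL6 it was 11.7% fasted only, 76.3% in both states and 12% fed only. The fed-only share with BCL6 was 25% at the 6 genes (10.2% to 49.5%), and each member interval held the share of all sites.

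Of 12 PPARδ sites, 7 stood in the fed list alone (58.3%, 32% to 80.7%), 3 in both lists (25%, 8.89% to 53.2%) and 2 in the fasted list alone (16.7%, 4.7% to 44.8%). Over all PPARδ sites the shares were 70.7%, 18.7% and 10.6%. The 3 sites called in both states were *Fgf21* +4466, *Angptl4* +2174 and *Gdf15* -1881, 1 at each of 3 genes. Both fasted-only sites, *Angptl4* -7297 and *Igfbp2* -33623, lacked BCL6 in C57BL/6 livers.

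The lists themselves differ in length between feeding states. Near the 6 genes there were 17 fed and 9 fasted BCL6 peaks, a ratio of 1.89, where the whole lists had a ratio of 1.63. For PPARα the counts were 22 and 24, a ratio of 0.917 beside 0.736 for the lists. For PPARδ they were 10 and 5, a ratio of 2 beside 3.05. The part of depth or of the peak threshold in these ratios was not tested.

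**Figure D3:**
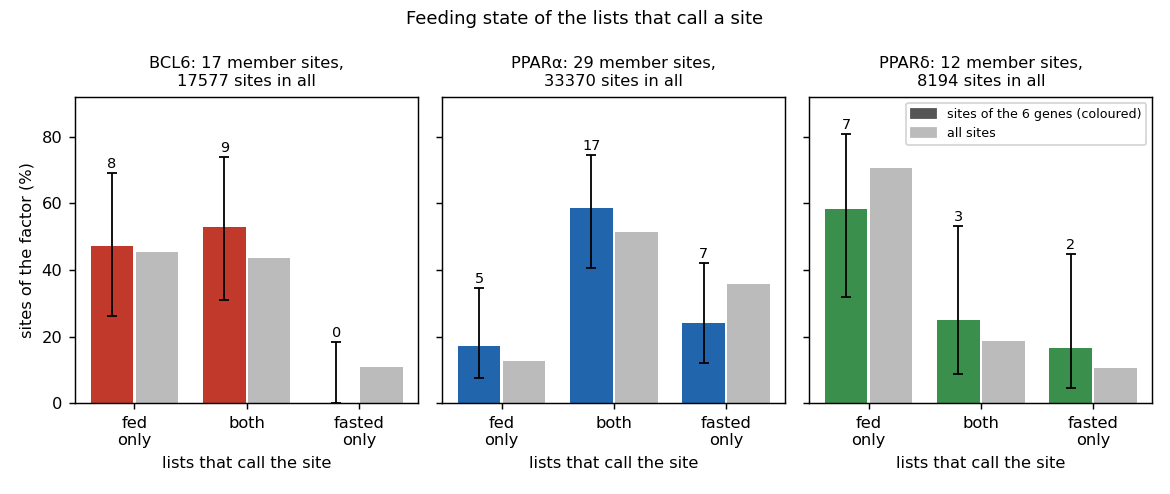
Percent of the sites of each factor by the feeding state of the lists that held them; colored bars are the sites of the 6 genes with 95% Wilson intervals and their number above, gray bars are all sites. Each interval holds the share of all sites, and fasted-only BCL6 is at 0 of 17 sites beside 11%.

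BCL6 calls at these genes recurred in the second set of fed livers. Of the 17 fed C57BL/6 sites, 15 were also called in *Bcl6* fl/fl livers, 88.2% (65.7% to 96.7%), beside 69.6% of all fed BCL6 sites. *Fst* -26495 and *Igfbp2* +11886 were the sites not called again. In the other direction, *Gdf15* -1881, *Igfbp2* -33623 and *Fst* +1980 were called in *Bcl6* fl/fl livers only, of 18 peaks in that list near the 6 genes. The mice of the lists differ in genotype, and whether they shared a batch is not given in the sources used here. *Gdf15* is the gene whose BCL6 call depends on which list is used.

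Peak centers within a site are close by the joining rule, which links neighboring centers within 200 bp. Fed BCL6 and fed PPARα centers were between 3 and 71 bp apart at 15 sites, with a median of 30 bp beside 27 bp for all sites. The nearest were *Fgf21* +5772 and *Fst* -4059, at 3 bp each, and the farthest was *Igfbp2* -14960. Fed and fasted centers of BCL6 were 8 to 70 bp apart at 9 sites (median 24 bp, as for all sites) and those of PPARα 1 to 67 bp at 17 sites (median 22 bp beside 23 bp). Since a peak is about 200 bp wide, these distances say little about which bases were contacted.

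DR1 was searched in 200 bp around the site centers, with 2 mismatches allowed on either strand. It was found at 7 of the 32 sites, 21.9% (11% to 38.8%), beside 13.1% of all sites. *Igfbp2* had 5 of the 7. Its matches were GGGTCAAAGGACA at +17465, GAGTCAGAGGTCA at +657, GGCTCAAAGGTCA at -32048, AGGTCAAATGGCA at -51093 and AGGGCAGAGCTCA at -51605. The others were AGGTTGGAGGTCA at *Fgf21* +5772 and AGTTCAGAGGACA at *Angptl4* +7941. None of the 7 had fewer than 2 mismatches. All 7 sites were called for PPARα, and 5 of them for BCL6 as well. PPARα was called at 29 of the 32 sites, with or without DR1. Of the 5299 sites with DR1 in all, 4657 had PPARα and 2086 had BCL6.

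Among the printed stretches, the match at *Igfbp2* +657 lay 6 bp from the site center and that at *Fgf21* +5772 81 bp. The sites at *Fgf21* +4466, *Angptl4* +2174 and *Fst* -4059, each called for all 3 factors, held no match, and the closest stretch had 4 mismatches in each. At *Angptl4* +2174 an exact half-site lies at the edge of the window. No match means only that these letters are not in the window. Of the 9 sites with 3 factors 3 held DR1, 33.3% (12.1% to 64.6%), beside 18.9% of all such sites.

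The BCL6 element TTCCTAGAA, with 1 mismatch allowed, was found at 1 of 32 sites, 3.12% (0.554% to 15.7%), beside 10.8% of all sites and 15.3% of all BCL6 sites. The match CTCCTAGAA lay 72 bp from the center of *Igfbp2* +11886, the site called for fed BCL6 and no PPAR. That site was not called in *Bcl6* fl/fl livers. The element read backwards also matched 1 of the 32 sites, beside 4.08% of all sites. None of the 16 sites of BCL6 and PPARα held it (upper bound 19.4%), beside 10.9% of all such sites. The STAT element TTCNNNGAA, with which an exact BCL6 element overlaps, was found at 0 of 32 sites (upper bound 10.7%) and at 10.4% of all sites.

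Other elements were searched with none or 1 mismatch. The FOXA element TGTTTAC, the site of pioneer factors of the liver, was exact at *Angptl4* +6726, *Fst* -7693 and *Fst* +1980, 8, 1 and 7 bp from the site centers. These are 9.38% of the 32 sites (3.24% to 24.2%), beside 7.47% of all sites. The C/EBP element TTGCGCAA, with 1 mismatch allowed, was found at *Fst* -32021 alone, beside 9.39% of all sites. The C/EBP-ATF element TGATGNAA, to which ATF4 binds in the amino acid and stress response, was exact at 2 sites, 6.25% (1.73% to 20.1%), beside 5.18% of all sites. Both were the promoter sites of *Fgf21*, with TGATGCAA at chr7:45616510-45616517 and again at chr7:45615622-45615629, on the strand opposite the gene. The matches lay 45 and 77 bp from the site centers, and neither 200 bp window held a DR1 match. Each of these sites is a single fasted PPARα peak of 222 bp, so any match in its window must lie inside that peak.

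Genes that work with the 6 hepatokines were counted by the same rule in 5 lists of 52 genes. Of all coding genes, 45.8% had no site and 26% had a shared site, one of BCL6 with PPARα. Of the receptors and related ligands of FGF21, 7 of 7 genes had a site and 3 had BCL6 with PPARα: *Fgf1* at 5 sites, and *Klb* (β-klotho) and *Fgfr2* at 4 each. *Fgfr1*, the main receptor of FGF21, had 1 site, of PPARα. Of the other angiopoietin-like genes and those of lipoprotein lipase handling, 7 of 8 had a site and 5 had a shared site. *Angptl8* and *Lpl* had 3 shared sites each. *Angptl7* had none of any factor.

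Among the 5 lists, the receptors of GDF15 and the activin genes had the fewest sites. Their median was 1 site per gene, the same as for all coding genes. Of 12 genes 9 had a site and 4 had a shared site: *Inhba* 3, *Acvr2a* 2, and *Inhbc* and *Inhbe*, which encode liver activin subunits, 1 each. *Ret*, *Inha* and *Fstl1* had none, and *Gfral* had 1 site of PPARα. Of 10 genes of the IGF axis 9 had a site and 6 had a shared site. *Igf1* had 13 shared sites, *Igfbp1* 10 and *Igfbp4* 4, whereas *Igfbp6* had none of any factor. Among 15 other hepatokine genes all had a site and 11 had a shared site, led by *Selenop* with 8, *Tsku* with 7 and *Fgl1* with 5. The 6 genes had shared sites at 4, so that these lists ranged on both sides of their share. Shared sites were 32 of 53 sites for the IGF axis and 39 of 91 for the other hepatokines. They were 13 of 37 for the FGF21 list, 11 of 38 for the angiopoietin-like list and 7 of 22 for the GDF15 list. The 6 genes had 16 of 32. A site of all 3 factors was found at 5, 6, 3, 3 and 2 genes of these lists in turn, and at 4 of the 6 genes. The length of sequence nearest to each related gene was not measured.

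**Figure D4:**
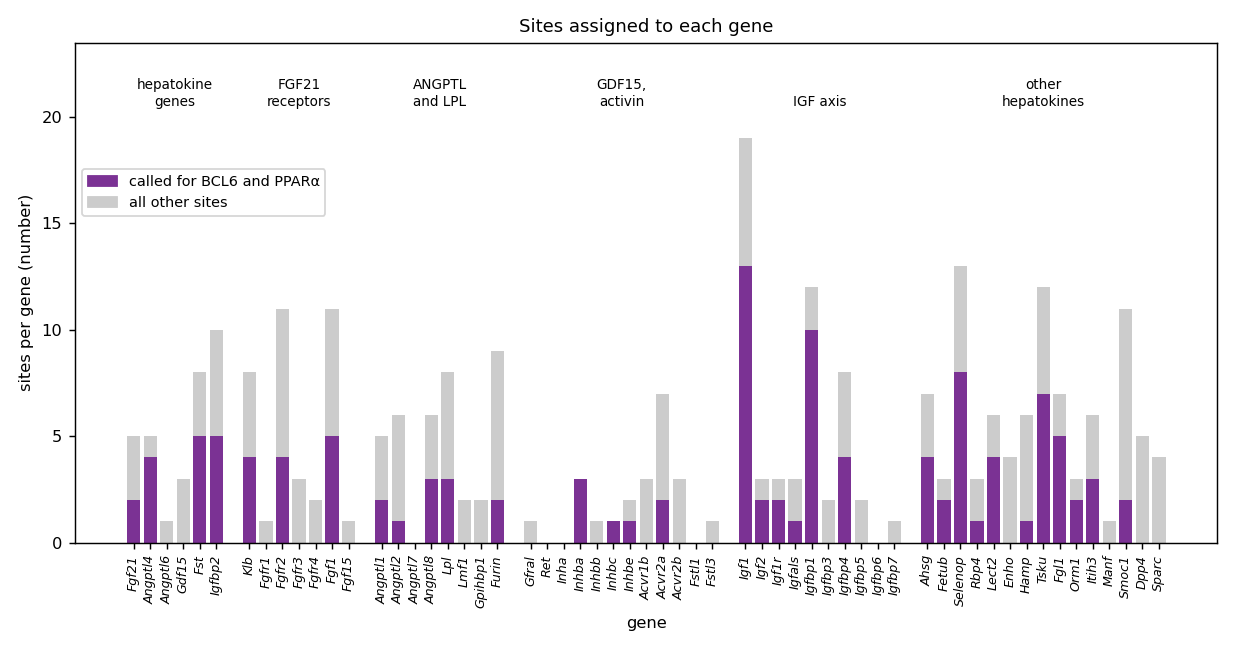
Number of sites assigned to each of the 6 genes and of 52 related genes (bars, by list); the purple part is called for BCL6 and PPARα, the gray part is all other sites. *Igf1* has 13 shared sites, more than any of the 6 hepatokine genes, and *Gdf15* and *Angptl6* have none.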

How the data were processed

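BCL6, PPARα and PPARδ ChIP-seq peaks of mouse liver were used from 7 lists. Reads had been placed on mm10 by the authors (Bowtie, unique placements only). Their HOMER peak calls used the pooled replicates of a group with input as control. The authors kept peaks that their DESeq2 step called enriched. The deposited values are the chromosome, start and end in bp, another unit than counts or signal, with no normalization. Reads that fit several places were left out, so duplicated sequence can lack peaks. All list columns matched a labelled group (0 unmatched).

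Here peaks of the 7 lists were joined by single linkage where centers lay within 200 bp. Starts of 21000 protein-coding genes came from curated RefSeq transcripts of GRCm38. A site's class counts C57BL/6 lists only. Named genes were the 6 members with every site, overlapping and neighboring genes, and, of 5 related lists, up to 3 genes with the most shared sites and genes with none. A few genes of these lists are not reported here. *Fgfr1*, *Gfral*, *Inhbc* and *Inhbe* were named after their values were seen. The members and lists were chosen with earlier results of these data known. The STAT, FOXA, C/EBP and C/EBP-ATF elements were added after the files were read. The functions were tested on simulated data. Python 3.11.15, NumPy 2.4.6, SciPy 1.17.1, Matplotlib 3.10.9 and samtools 1.23.1 were used. Alternatives covered joining, reach, gene models, the BCL6 list and the element search.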

Additional observations from a re-analysis of the deposited data

How the results depend on the processing

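Counts over the 6 genes stayed within 1.5-fold under centers joined at 100 or 400 bp or by overlap, a reach of 50 kb, the nearest start alone, 1 start per gene, starts of noncoding genes added, or the *Bcl6* fl/fl list for fed BCL6. A reach of 25 kb left 10 sites of BCL6 and PPARα, 5 of fed-only BCL6, 2 of fed-only PPARα and 1 of fasted-only PPARδ, and *Igfbp2* had 5 sites. With 1 Mb, fasted-only BCL6 went from 0 to 1. Gene bodies alone held 9 sites, 1 with BCL6 and PPARα, which also had PPARδ. They held 2 fed-only and 0 both-state BCL6 sites, 0 fed-only, 4 both-state and 3 fasted-only PPARα sites, and 0, 1 and 0 PPARδ sites. *Fgf21* then had 0 sites, as the centers of its sites all lie outside the gene. DR1 was found at 1 site in 50 bp windows, 9 in 400 bp windows, 0 with 1 mismatch fewer and 0 read backwards, beside 4.23%, 16.3%, 3.06% and 2.92% of all sites. In 50 bp windows (3.12%) and with 1 mismatch fewer the share at the 6 genes was thus below that of all sites, the reverse of 21.9% beside 13.1%. The BCL6 element was found at 0, 4, 0 and 1, beside 3.26%, 17%, 1.23% and 4.08%. The smaller window and the lower mismatch limit can only lower a count. Read backwards, the letters form a different sequence, so those counts are not counts of the element itself. No stricter peak threshold could be tried, since the lists hold no score. No paired analysis was possible because each list pools its replicates. Depth is unknown, so a peak missing from a list is not shown to be absent.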
